A study of Mus musculus with 8 samples.

Results

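The heat shock and unfolded protein response genes described here were read from 15 probe sets of 45101 on an Affymetrix mouse expression array. These probe sets were listed by their identifiers, with earlier results of these data known. They stand for 9 genes, with the near-identical copies Hspa1a and Hspa1b counted as 1 because the same probe sets are assigned to both. RNA came from whole blood of 4 hypoxic mice, for which oxygen was brought down over 15 days of a Mount Everest expedition, starting at 21% and ending at about 7%, and of 4 control mice held at room conditions in Kathmandu. Each mouse has 1 array, and blood was drawn from the vena cava of all 8 mice at the end of the 15 days. The labels give no strain, sex, age or genotype, and they do not say whether mice of a group came from more than 1 cage or batch, so p-values measure the spread between these 8 animals. The hypoxic mice travelled with the expedition and the controls did not, so oxygen and any other difference between the settings cannot be told apart. The gene names are those assigned to the identifiers when the probe sets were chosen, and no table used here pairs the rest of the array with genes, so markers of blood cells and other genes of these pathways were not analysed here.

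Cells answer misfolded protein with separate programmes. In the cytosol, the factor HSF1 drives heat shock proteins such as the Hsp70 chaperones Hspa1a and Hspa1b, which refold damaged proteins. In the endoplasmic reticulum (ER), the unfolded protein response runs through the sensors IRE1, PERK and ATF6. IRE1 splices the messenger RNA of Xbp1, PERK slows translation and favours the factor ATF4, and ATF6 and XBP1 raise chaperones such as Hspa5 (BiP) and the degradation factor Herpud1. ATF4 also responds to other kinases, among them the heme-regulated kinase of red cell precursors, and acts through Atf3, Ddit3 (CHOP) and Trib3. In blood, XBP1 is best known for its part in antibody-secreting plasma cells.

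The promoters of 4 of these genes are shown because they hold the letters that the heat shock and ER stress factors are known to bind. Hspa5, Calr and Herpud1 are known targets of the same ER stress factors, and of these 3 only Herpud1 had a change that passed the test. Each promoter is the 250 bases before the start site from the RefSeq promoter table (GRCm38.p6), 5′ to 3′ on the gene's strand, with the motif matches in capitals.
Hspa1a, chr17:34972157-34972406, minus strand: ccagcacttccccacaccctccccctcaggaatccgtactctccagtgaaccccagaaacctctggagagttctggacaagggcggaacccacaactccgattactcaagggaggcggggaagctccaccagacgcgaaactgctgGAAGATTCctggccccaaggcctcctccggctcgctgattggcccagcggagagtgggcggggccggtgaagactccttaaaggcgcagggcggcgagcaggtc
Hspa5, chr2:34771840-34772089, plus strand: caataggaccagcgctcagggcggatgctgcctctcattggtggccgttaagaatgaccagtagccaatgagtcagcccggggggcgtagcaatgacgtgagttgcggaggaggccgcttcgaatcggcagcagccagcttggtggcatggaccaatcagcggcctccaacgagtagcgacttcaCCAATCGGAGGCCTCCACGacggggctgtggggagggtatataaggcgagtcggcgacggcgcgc
Calr, chr8:84846932-84847181, minus strand: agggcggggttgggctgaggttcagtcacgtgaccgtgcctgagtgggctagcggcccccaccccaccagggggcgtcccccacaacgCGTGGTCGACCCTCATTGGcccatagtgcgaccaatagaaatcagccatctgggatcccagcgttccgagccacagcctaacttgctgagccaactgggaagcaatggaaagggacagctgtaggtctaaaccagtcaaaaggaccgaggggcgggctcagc
Herpud1, chr8:94386179-94386428, plus strand: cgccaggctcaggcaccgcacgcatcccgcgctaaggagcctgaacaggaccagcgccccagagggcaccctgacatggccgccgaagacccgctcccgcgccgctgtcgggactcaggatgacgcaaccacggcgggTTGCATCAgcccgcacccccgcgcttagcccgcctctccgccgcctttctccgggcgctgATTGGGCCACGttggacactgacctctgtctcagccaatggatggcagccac

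All 10 member gene symbols matched the promoter table, and 6 motifs were searched on both strands of the 250 bases. In the Hspa1a window the capitals mark a pair of heat shock units, GAANNTTC, which 6.69% of the 32851 promoter windows of the table hold. The Hspa1b window holds the same match at the same place, from position -104 to -97 relative to the start site, and is 98.8% identical, with 3 differing bases (C44T, T47C and T249G, Hspa1a base first, counted from 1 at the 5′ end of the window). The pair in the other orientation, TTCNNGAA, which 7.17% of windows hold, was found in no member. In the Hspa5 and Calr windows the capitals mark the ER stress response element, CCAAT followed by 9 bases of any kind and CCACG, on the opposite strand in Calr, which 0.113% of windows hold. In the Herpud1 window they mark the C/EBP-ATF element TGATGNAA on the opposite strand, held by 3.45% of windows, and, nearer the start site, the ER stress response element II, ATTGG followed by 1 base of any kind and CCACG, held by 0.0304%. Atf3 holds a C/EBP-ATF match as well, and the UPR element core TGACGTGG, which 0.563% of windows hold, was found in no member. A match is a run of letters and not a measured binding site, and the absence of one says only that these letters are not in this window.

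In the blood of the hypoxic mice 1 probe set of Xbp1 rose, by 0.91 ± 0.24 on the log2 scale (SE, n = 4 per group), and 1 of Herpud1 fell, with a difference of -0.60 ± 0.20. The ER chaperones Hspa5 and Calr and the factors Atf4, Ddit3 and Atf3 did not pass the test, and the Hspa1a/Hspa1b and Trib3 probe sets were too dim to enter it. A probe set entered it where 4 or more of the 8 arrays read over 4 on the log2 scale, which 10 of the 15 (7 genes) did, and 8 of these were not called. The 2 calls are 20% of the tested members, beside 31.2% of all 29231 tested probe sets called in limma at an adjusted p under 0.05. By direction, the 1 member that rose stands beside 12.4% of the array called higher, and the 1 that fell beside 18.8% called lower. The median change of the tested members was -0.14 on the log2 scale, beside -0.06 over all tested probe sets. In whole blood, fewer cells of a type and less RNA per cell cannot be told apart, and this holds for every change given here.

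**Figure D1:**
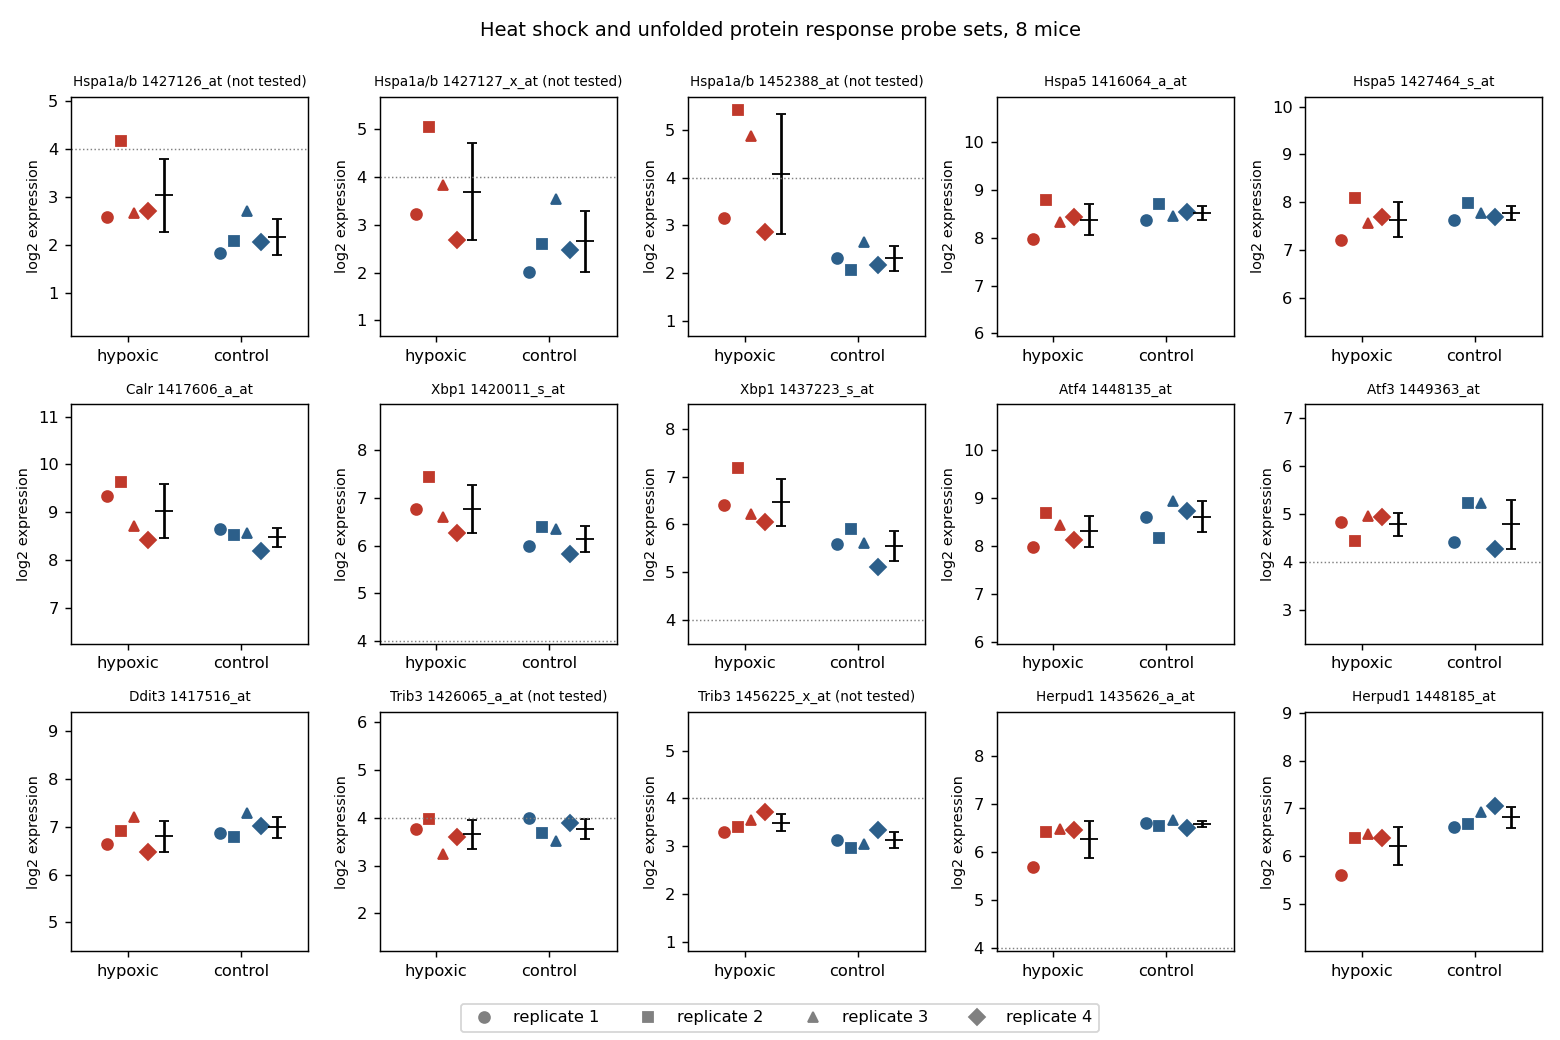
Log2 GCRMA expression (y axis) of each of the 15 probe sets in the 4 hypoxic mice (red) and the 4 control mice (blue), with the marker shape giving the replicate number and black bars the mean ± SD. The dotted line is the filter level of 4. All panels span the same number of log2 units, and the Hspa1a/Hspa1b and Trib3 probe sets lie mostly or wholly under the line.

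**Figure D2:**
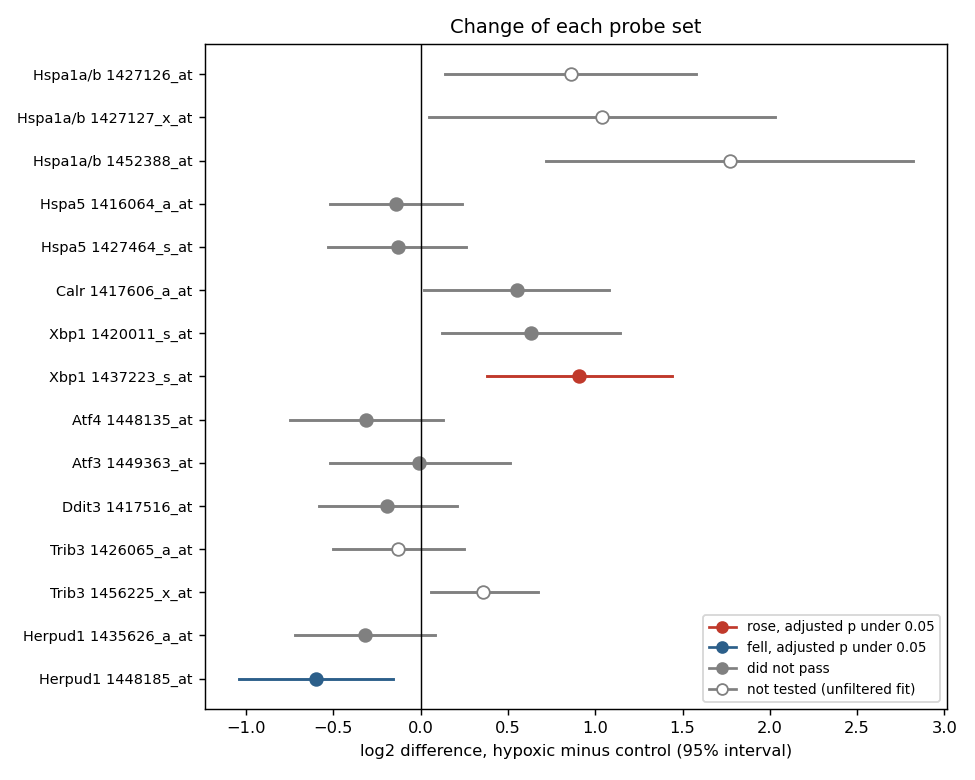
Log2 difference, hypoxic minus control (x axis), of each probe set with its 95% interval from limma. Filled points were tested and open points come from the fit without the filter. Xbp1 1437223_s_at (red) lies to the right of 0 at 0.91 and Herpud1 1448185_at (blue) to the left at -0.60.

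The inducible cytosolic chaperones Hspa1a and Hspa1b were dim in the blood of most mice, with the highest values in hypoxic mice. At 1452388_at the hypoxic mice had 3.16, 5.41, 4.86 and 2.87 (log2 expression, replicates 1 to 4), and the control mice 2.31, 2.07, 2.66 and 2.18. The groups did not overlap, as in 26.2% of all probe sets of the array, but only hypoxic replicates 2 and 3 passed the filter level of 4. The hypoxic mean was 4.08 ± 1.25 and the control mean 2.31 ± 0.26 (SD, n = 4 each), a difference of 1.77. At 1427127_x_at the values were 3.23, 5.05, 3.82 and 2.69 in the hypoxic mice and 2.01, 2.59, 3.54 and 2.48 in the control mice. At 1427126_at they were 2.57, 4.17, 2.66 and 2.70 in the hypoxic mice and 1.82, 2.07, 2.70 and 2.05 in the control mice. The groups overlapped at both of these, and hypoxic replicate 2 was the highest mouse at all 3 probe sets. The suffix _x_at is the array maker's mark for probes that may also match other transcripts.

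Because these 3 probe sets did not pass the filter, they have no test in the fit described above. Fitted without the filter, where 22.2% of 45037 probe sets were called in limma, 1452388_at differed by 1.77 ± 0.48 (SE, adjusted p = 0.0224), 1427127_x_at by 1.04 ± 0.45 (adjusted p = 0.118) and 1427126_at by 0.86 ± 0.33 (adjusted p = 0.0802). The first of these did not pass without control replicate 2 (adjusted p = 0.0552) or without control replicate 4 (adjusted p = 0.0524). Without hypoxic replicate 2 the difference of 1427127_x_at was 0.59 and that of 1427126_at was 0.48, each more than 1.5 times smaller, and that of 1452388_at was 1.33 (adjusted p = 0.0452). The control values at 1452388_at are close to the array's background. Probe sets for bacterial transcripts, which serve as blanks here, averaged 2.42 to 2.6 per array in the hypoxic mice and 2.16 to 2.23 in the control mice, and the brightest of the 27 averaged 4.31. The blanks were thus higher on every hypoxic array than on any control array. At 1452388_at hypoxic replicates 1 and 4 (3.16 and 2.87) also lay under the brightest blank. How much of the difference or of the lack of overlap at these dim probe sets is background was not tested. The size of a difference is uncertain where 1 group sits at the floor, so these log2 differences are not a measure of how many times more RNA the hypoxic mice had.

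Hspa5, the main ER chaperone and the classical readout of the unfolded protein response, was not called at either probe set. At 1416064_a_at the hypoxic mice had 7.98, 8.78, 8.33 and 8.43, and the control mice 8.36, 8.71, 8.46 and 8.53. The control mice lay within the range of the hypoxic mice, whose replicate 1 was the lowest and replicate 2 the highest of all 8. The difference was -0.14 ± 0.17 (SE, adjusted p = 0.575, limma), with a 95% interval of -0.52 to 0.24, or 0.70-fold to 1.18-fold. At 1427464_s_at the hypoxic mice had 7.22, 8.08, 7.57 and 7.70 and the control mice 7.64, 7.98, 7.77 and 7.70, with the mice at the extremes being the same as at the first probe set. The difference there was -0.13 ± 0.18 (SE, adjusted p = 0.604, limma), with a 95% interval of -0.53 to 0.26, or 0.69-fold to 1.20-fold. These intervals leave out a change of 1.5-fold in either direction.

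Calreticulin (Calr), a calcium-binding chaperone that retains unfinished glycoproteins in the ER, was higher on average in the hypoxic mice and did not pass the threshold. The hypoxic mice had 9.35, 9.63, 8.71 and 8.43, and the control mice 8.66, 8.52, 8.56 and 8.19. Hypoxic replicates 1, 2 and 3 lay above every control mouse and hypoxic replicate 4 lay below 3 of the 4 controls. The means were 9.03 ± 0.56 in hypoxic and 8.48 ± 0.20 in control mice (SD, n = 4 each), a difference of 0.55 ± 0.24 (SE, adjusted p = 0.104, limma) with a 95% interval of 0.02 to 1.08. Without hypoxic replicate 4 the difference was 0.75 and passed (adjusted p = 0.0324), and without hypoxic replicate 2 it was 0.35 (adjusted p = 0.256).

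Xbp1, the factor that IRE1 activates by splicing its messenger RNA, was the member that rose. At 1437223_s_at the hypoxic mice had 6.41, 7.17, 6.21 and 6.06, and the control mice 5.58, 5.91, 5.61 and 5.12. The groups did not overlap, as in 31.9% of the tested probe sets of the array (13.9% with the hypoxic mice above), and hypoxic replicate 2 was the highest. The means were 6.46 ± 0.49 in hypoxic and 5.55 ± 0.32 in control mice (SD, n = 4 each), a rise of 0.91 ± 0.24 (SE) or 1.88-fold (adjusted p = 0.0153, limma). An exact two-sided permutation test over the 70 assignments of the mice gave p = 0.0286, the smallest this design allows, which is 0.0895 after adjustment over all tested probe sets. This p follows from groups that do not overlap and adds nothing to that. Both Herpud1 probe sets and 1452388_at of Hspa1a/Hspa1b had the same p before adjustment. With the filter the call held without any 1 mouse, with a rise of 0.67 without hypoxic replicate 2 (adjusted p = 0.0285) and of 0.76 without control replicate 4 (adjusted p = 0.0456). In the fit without the filter it was lost without control replicate 4 (adjusted p = 0.0563) and held without any 1 of the other mice. Among the 7206 tested probe sets with a mean level of 6 to 8, of which this is one of the dimmest, 13.5% rose and 33.3% fell, with a median change of -0.30. Among the 19064 with a mean level of 4 to 6, just below it, 9.41% rose and 11.8% fell, with a median change of 0.0.

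At the other Xbp1 probe set, 1420011_s_at, the hypoxic mice had 6.76, 7.44, 6.6 and 6.26, and the control mice 6.0, 6.38, 6.34 and 5.82. The order of the hypoxic mice was the same as at the first probe set, and here hypoxic replicate 4 lay within the range of the controls. The difference of 0.63 ± 0.23 (SE) did not pass (adjusted p = 0.0607, limma) and lies under 0.68, the largest difference of a bacterial control probe set. Those blanks are dimmer (the brightest averaged 4.31), so 0.68 is no measure of the noise at the level of Xbp1. The Xbp1 difference passed without hypoxic replicate 4 (0.79, adjusted p = 0.0288) and with arrays centred on their median (0.70, adjusted p = 0.0413). The array reads the amount of Xbp1 messenger RNA and not its splicing, so activity of IRE1 was not measured.

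The factors of the PERK and ATF4 branch did not pass the threshold. For Atf4, which PERK and other eIF2 alpha kinases raise mainly through translation, the hypoxic mice had 7.97, 8.68, 8.43 and 8.12 and the control mice 8.61, 8.17, 8.94 and 8.73. The ranges overlapped widely, and the difference was -0.31 ± 0.20 (SE, adjusted p = 0.251, limma) with a 95% interval of -0.75 to 0.13, or 0.60-fold to 1.09-fold. For Ddit3, the pro-apoptotic factor CHOP, the hypoxic mice had 6.64, 6.90, 7.20 and 6.48 and the control mice 6.86, 6.78, 7.29 and 7.02. Its difference was -0.19 ± 0.18 (SE, adjusted p = 0.455, limma) with a 95% interval of -0.58 to 0.21, or 0.67-fold to 1.16-fold, so a rise of 1.5-fold lies outside it.

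Atf3, a factor that many stresses induce and that acts with CHOP, was near the filter level in both groups. The hypoxic mice had 4.83, 4.44, 4.96 and 4.93, and the control mice 4.42, 5.24, 5.24 and 4.28. The controls lay in pairs above and below the hypoxic mice, and the means were 4.79 ± 0.24 in hypoxic and 4.79 ± 0.51 in control mice (SD, n = 4 each). The difference was -0.01 ± 0.23 (SE, adjusted p = 0.987, limma), with a 95% interval of -0.52 to 0.51, or 0.70-fold to 1.42-fold.

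Trib3, a pseudokinase that CHOP and ATF4 induce and that in turn restrains ATF4, lay under the filter level on every array and was not tested. At 1426065_a_at the hypoxic mice had 3.77, 3.97, 3.24 and 3.60 and the control mice 3.99, 3.69, 3.52 and 3.89. At 1456225_x_at the hypoxic mice had 3.30, 3.40, 3.54 and 3.72 and the control mice 3.13, 2.96, 3.05 and 3.35. The probe sets differed in direction, by -0.13 at the first and by 0.36 at the second, and the groups overlapped at both. In the fit without the filter neither passed (adjusted p = 0.626 and 0.0813, limma). The bacterial blanks were also higher on the hypoxic arrays (2.42 to 2.6) than on the control arrays (2.16 to 2.23). The part of background in these dim values was not tested.

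Herpud1, an ER membrane protein that helps to pass misfolded proteins to degradation and that ER stress normally induces, was the member that fell. At 1448185_at the hypoxic mice had 5.62, 6.39, 6.47 and 6.39, and the control mice 6.61, 6.67, 6.92 and 7.06. The groups did not overlap, with the hypoxic mice below as in 18% of the tested probe sets of the array, and hypoxic replicate 1 stood below the other hypoxic mice. The means were 6.22 ± 0.40 in hypoxic and 6.82 ± 0.22 in control mice (SD, n = 4 each), a difference of -0.60 ± 0.20 (SE) or 0.66-fold (adjusted p = 0.041, limma). This call is the less firm of the pair. Leaving out any 1 mouse other than hypoxic replicate 3 ended it: the adjusted p was 0.0823, 0.0515 and 0.0536 without hypoxic replicates 1, 2 and 4, and 0.0506, 0.0574, 0.0931 and 0.102 without control replicates 1 to 4. The difference itself was larger without hypoxic replicates 2 and 4 (-0.65 and -0.66) and control replicates 1 and 2 (-0.67 and -0.65). It was smaller without control replicates 3 and 4 (-0.56 and -0.52). Without hypoxic replicate 1 the difference was -0.40, a change in size of 1.5 times. It was -0.53 (adjusted p = 0.0654) with arrays centred on their median and -0.43 (adjusted p = 0.142) after renewed quantile normalization.

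At the other Herpud1 probe set, 1435626_a_at, the hypoxic mice had 5.69, 6.43, 6.49 and 6.47, and the control mice 6.61, 6.54, 6.68 and 6.51. All hypoxic mice lay below all control mice here as well, but only hypoxic replicate 1 by a wide margin, and the difference of -0.32 ± 0.18 (SE) did not pass (adjusted p = 0.206, limma). Without hypoxic replicate 1 it was -0.12 (adjusted p = 0.515). The differences of both Herpud1 probe sets are to be read beside the median change of -0.30 of tested probe sets at a mean level of 6 to 8. In size they lie under the largest bacterial control difference of 0.68, but those blanks are dimmer and give no measure of noise at this level.

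**Figure D3:**
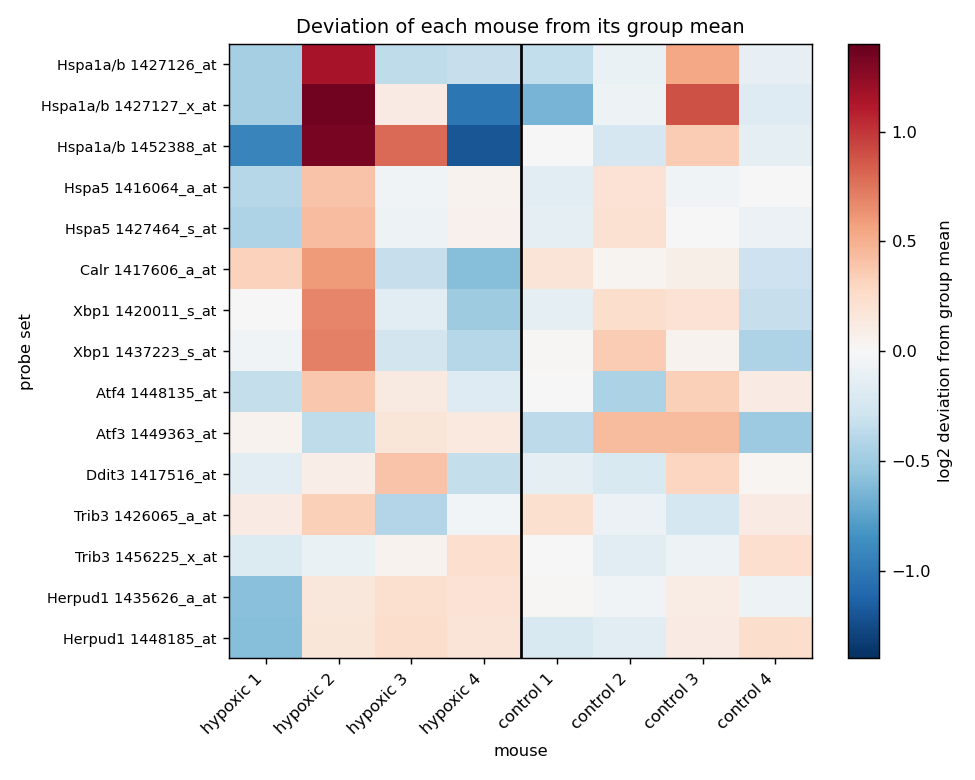
Deviation of each mouse (x axis) from the mean of its own group, in log2 units (colour), for the 15 probe sets (y axis), with hypoxic mice left of the line. Hypoxic replicate 2 is above its group mean for the Hspa1a/Hspa1b, Hspa5, Calr, Xbp1 and Atf4 probe sets, by up to 1.35, and hypoxic replicate 1 is below it at both Herpud1 probe sets, by 0.58 and 0.60.

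The hypoxic mice differed among themselves in a way that recurred across members. Hypoxic replicate 2 was the highest of the 4 hypoxic mice at 10 of the 15 probe sets, which are all those of Hspa1a/Hspa1b, Hspa5, Calr, Xbp1 and Atf4 and 1 of Trib3. Among the tested members it was the highest at 6 of 10, beside 23.2% of all tested probe sets of the array. Hypoxic replicate 1 was the lowest at 7 of 15, and at 5 of the 10 tested, beside 25.7% of the array. Hypoxic replicate 4 was the lowest at 6 of 15, and at 4 of the 10 tested, beside 20.3% of the array. Probe sets of 1 gene share their transcript, so these counts rest on fewer genes than probe sets. The pattern was noticed in these values and has no test.

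The array's own control probe sets give a few named values beside these. The transferrin receptor (Tfrc), which red cell precursors carry in abundance, was at 8.54, 9.03, 7.99 and 8.33 in the hypoxic mice and at 5.07, 5.42, 5.90 and 5.05 in the control mice at its 3′ probe set. Its log2 difference was 3.11 there, 0.92 at the middle probe set and 1.37 at the 5′ probe set (adjusted p = 1.44e-05, 0.0208 and 0.000976, limma). Hypoxic replicate 2 was highest at all 3 Tfrc probe sets, as it was among the hypoxic mice for Hspa1a/Hspa1b, Hspa5, Calr, Xbp1 and Atf4. It was not the highest of them for Ddit3, Herpud1 or Trib3 1456225_x_at, and was the lowest for Atf3. The part of red cell precursors in these values was not tested. As a measure of RNA quality, the difference between the 3′ and 5′ probe sets (3′ minus 5′) was taken. For beta-actin (Actb) it averaged 0.96 ± 0.12 in hypoxic and 0.95 ± 0.07 in control mice, and for Gapdh 1.53 ± 0.09 in hypoxic and 1.75 ± 0.09 in control mice (SD, n = 4 each). For Gapdh the groups did not overlap, with 1.43 to 1.64 in hypoxic and 1.65 to 1.85 in control mice. This difference was not tested. Actb itself was lower in the hypoxic mice at all 3 of its probe sets, with log2 differences of -0.39 to -0.42 (adjusted p = 0.0255 to 0.0373, limma), while the Gapdh probe sets differed by 0.01 to 0.33 and did not pass (adjusted p = 0.145 to 0.982, limma). The other markers of blood cell types, plasma cells among them, were not analysed here.

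**Figure D4:**
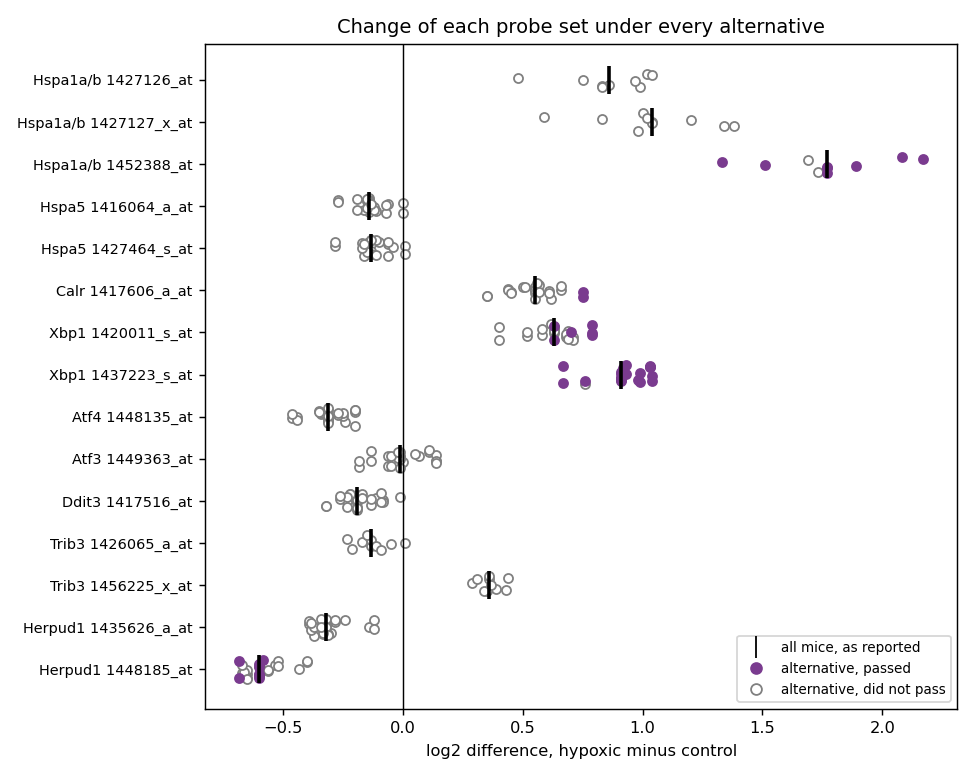
Log2 difference, hypoxic minus control (x axis), of each probe set under every alternative fit, with the black bar giving the value with all mice, filled points the alternatives that passed and open points those that did not. Xbp1 1437223_s_at stayed between 0.67 and 1.04 and Herpud1 1448185_at between -0.68 and -0.40.

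The authors' deposited table lists 14 of the 15 probe sets, all but 1427126_at, and gives 5 of them a q-value under 5%, beside 36.5% of all 38206 probe sets it lists. In the authors' deposited table these are 1452388_at of Hspa1a/Hspa1b (q = 0.825%), Xbp1 1437223_s_at (0.825%) and 1420011_s_at (3.97%), Trib3 1456225_x_at (3.06%) and Herpud1 1448185_at (1.88%). Those of Hspa1a/Hspa1b and Trib3 lie close to the floor, where the bacterial blanks were higher on the hypoxic arrays. The fold of 4.39 that the authors' deposited table gives for 1452388_at is a ratio of linear means, to which the brightest mouse contributes most. Hspa5, Atf4, Ddit3 and Atf3 have q-values of 13.6% to 43.5% in the authors' deposited table. It was computed from the same 8 arrays and is no second measurement.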

How the data were processed

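Whole blood RNA of 8 mice (4 hypoxic, 4 control) was hybridized to 1 array per mouse. Per the labels' protocols, RNA came from 100 µl of blood and was amplified from an oligo(dT) primer, and no globin reduction is mentioned. The submitters' processing notes name GCRMA and Partek without versions. GCRMA gives log2 expression and pulls dim probe sets to a floor, so their changes are uncertain in size. The deposited values read as such log2 values with the decimal point lost or, for some, turned into spreadsheet day numbers. For the 38206 probe sets of the authors' SAM table (significance analysis of microarrays, per the file headers) a reading had to return the authors' log2 numerator (hypoxic minus control mean) to within 5e-06, and 6895 probe sets were read from their own row alone. All 15 member probe sets had 1 possible reading on every array. The restored values gave the deposited linear fold ratios to within 1.6e-06 in relative terms. Per the file headers, the authors' table also holds a score and a q-value in percent.

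After leaving out 64 control probe sets, 29231 that read over 4 on the log2 scale on 4 or more arrays were tested with limma 3.58.1 (R 4.3.3), group as the only term, two-sided, with Benjamini-Hochberg adjustment over all of them and a threshold of 0.05. Control probe sets were tested in the same fit with them kept. The test was checked on simulated arrays. The restoring was checked by damaging restored values again and reading them back, for probe sets of the authors' table only. Promoters were read from a RefSeq table (GRCm38.p6). The other steps ran in Python 3.11.15 with pandas 2.3.3, numpy 2.4.6 and, for figures, matplotlib 3.10.9. The number of arrays limits the precision.

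The members, lists and tests were chosen with earlier results of these data known. Every member was to be named with its values. Lists of other heat shock and unfolded protein response genes and of blood cell markers were written down, but no table used here pairs probe sets with genes, so they were not analysed here. A replicate number names separate animals in the 2 groups. Correlations of the deviations of same-numbered mice over the tested probe sets were -0.113, -0.056, -0.102 and 0.062, which shows no pairing over the array. Such correlations cannot exclude a factor that same-numbered mice share at single probe sets. Alternatives for the filter, scaling, floor, variance model, array weights, replicate block, threshold and each mouse left out were run.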

Additional observations from a re-analysis of the deposited data

Results flagged for a closer look

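In 30 groups of 4 mice (15 probe sets, each in hypoxic and control mice), 3 values stood apart under Dixon's gap test, where chance gives about 1.5. At the Hspa1a/Hspa1b probe set 1427126_at hypoxic replicate 2 was at 4.17, and the rest of the hypoxic mice lay between 2.57 and 2.7. At the Herpud1 probe sets hypoxic replicate 1 was at 5.69 (1435626_a_at) and at 5.62 (1448185_at), while the rest of the hypoxic mice lay between 6.43 and 6.49 and between 6.39 and 6.47. The last pair of values reads the same transcript in the same mouse and is not 2 separate signs.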

How the results depend on the processing

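Of the tested members, 2 passed in limma, 1 higher and 1 lower. An adjusted p under 0.01 left 0 of both directions (4617 calls over the array, against 9114). The stricter filter (log2 above 6, 5809 calls over the array), no filter, the authors' filter (added after the data were seen) and the replicate block each gave 2 that rose and 1 that fell. The added probe set was 1452388_at of Hspa1a/Hspa1b with no filter and with the authors' filter, and 1420011_s_at of Xbp1 under the others. Centring on the median and renewed quantile normalization each gave 2 that rose and 0 that fell. The authors' deposited table has 5 with a q-value under 5%, 4 higher and 1 lower. With the filter and any single mouse left out there were 1 to 3 calls, 1 to 3 that rose and 0 or 1 that fell, and 6872 to 9315 calls over the array. With no filter and any single mouse left out (added after the data were seen) there were 0 calls (without control replicate 4) to 4 (without hypoxic replicate 4), 0 to 4 that rose and 0 or 1 that fell, and 6841 to 9975 over the array. The cause of these moves was not tested. Differences that were not called turned sign for Atf3, to 0.07 with median centring, 0.00 with quantile normalization, 0.05 with array weights, and -0.18 to 0.14 with a mouse left out (0.11 without hypoxic replicate 2 and 0.14 without control replicate 2 or 3, with the filter or with none), and for Hspa5 1427464_s_at, -0.28 to 0.01 with a mouse left out. The untested Trib3 1426065_a_at ran between -0.23 and 0.01 in the fits without the filter, the last without hypoxic replicate 3. With the replicate block no other member changed its call. The list counts and the count of every probe set per gene were not run, for want of gene names. Setting values under 4 to 4, a trended and robust variance and array weights left the calls of all tested members as they were. For Hspa1a/Hspa1b and Trib3 the limit is that their signal lies close to the floor.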

Other observations

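The Hspa1a/Hspa1b probe set 1452388_at, whose control mice lie at the level of the bacterial blanks and whose difference is therefore uncertain in size, was set against all tested probe sets. Over the 8 arrays the tested probe sets most like it were 1437497_a_at, which differed by 2.15 between hypoxic and control mice, and 1431011_at, which differed by 0.39, each with a Pearson r of 0.981. Their genes are not named here. The r of 1452388_at with the other Hspa1a/Hspa1b probe sets was 0.834 and 0.891, and with Xbp1 0.817 and 0.83. With the remaining members it ran from -0.34 (Herpud1 1448185_at) to 0.694 (Calr), and was 0.115 and 0.146 for Hspa5. The points share the 2 groups of mice and the arrays, so these values are descriptions.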
